A study of Mus musculus with 2 samples.

Results

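The contractile genes described here were 52 genes chosen by symbol, of the 24354 genes in the deposited expression values. They encode the troponins, myosin heavy and light chains, actins, alpha-actinins, tropomyosins, transgelins and calponins, with titin and the main proteins of muscle calcium handling. By what is known of each protein they were divided into 23 genes of striated muscle (heart or skeletal muscle), 8 of smooth muscle, 13 of nonmuscle cells and 8 whose isoforms serve muscle and nonmuscle cells alike. All 52 were measured, and 41 reached 2 FPKM (a fragment count scaled for transcript length and library size) in at least 1 library.

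RNA was sequenced from mouse ESCs (embryonic stem cells) differentiated toward mesoderm, with 1 library of a control line (Diff–CONT) and 1 of an inducible Ino80 knockout line (Diff–iKO), so no difference has a replicate check and no p-value is given. The labels give the control as WT, whereas the methods describe lines from separate blastocysts that both carry 2 floxed Ino80 alleles, with the tamoxifen-activated recombinase CreER, inserted at the broadly active ROSA26 locus, in the knockout line only. Both were grown as embryoid bodies, attached at day 4, and from the next day kept for 7 days in medium with serum, BMP4 and 0.5 µM 4-OHTM, so the control also received the drug. Ino80 itself was 8.90 FPKM in Diff–CONT cells against 10.3 in the other, so the FPKM over the whole gene was not lower under the knockout label, and directions below are therefore given for the library labelled Diff–iKO. About 30100000 fragments lay behind the Diff–CONT values and 22520000 behind the others, as recovered from the steps of the low values. Where a log2 ratio is given with a 95% interval, the interval covers counting error only. In each pair of values the Diff–CONT value comes first.

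In striated muscle, thick filaments of myosin pull on thin filaments of sarcomeric actin within the sarcomere. Calcium released from the sarcoplasmic reticulum binds troponin C, and the troponin complex then moves tropomyosin away from the myosin-binding sites. Smooth muscle and nonmuscle cells have no troponin, and their myosin is switched on when myosin light chain kinase phosphorylates the regulatory light chain. Cytoplasmic actins and nonmuscle myosins are made by nearly all cells, whereas the troponins and cardiac myosins mark muscle. In RNA from a whole culture, fewer muscle cells and less RNA per muscle cell cannot be told apart.

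Of the 13 striated members that reached 2 FPKM, 7 were at least 2-fold lower in cells labelled Diff–iKO and 1 was higher, whereas none of the 13 nonmuscle members passed in either direction, with log2 ratios between -0.54 and 0.71. The cut-off, modelled on that of the study, was a fold change of at least 2 and an FPKM of at least 2, taken here in at least 1 library and without a pseudocount. With it 8 of the 41 members that could pass were lower (19.5%) and 2 were higher (4.88%). Among all 12376 genes that could pass, 8.39% were lower and 6.73% were higher. With 0.1 added to each FPKM these shares were 8.10% and 6.52%, and the same 8 and 2 members passed. A lower gene could reach the FPKM minimum through its Diff–CONT value alone, here and in the lists below. With 2 FPKM required in both libraries, 3 members were lower (against 5.10% of all genes) and 2 were higher (against 4.37%). The 7 striated members that were lower were Tnnt2, Tnni1, Tnnc1, Myl3, Myl7, Myh7 and Actc1, and the other lower gene was Mylk. The higher members were Acta1, the skeletal alpha actin gene, and Cnn1, the smooth muscle calponin gene.

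The classes differed in their medians. The log2 ratio of FPKM + 0.1 had a median of -1.32 over the 16 striated members whose mean FPKM reached 1, of which 11 were lower, against -0.01 over the 13145 genes of the series with that mean. It was 0.36 over 7 smooth muscle members, of which 6 were higher, -0.06 over the 13 nonmuscle members and -0.01 over the 8 members of mixed use. The striated median rests on which genes are counted. Without a minimum on FPKM it was -0.21 over all 23 members, and with a minimum mean of 5 it was -1.80. The striated members were the least abundant class, with Diff–CONT levels from 0.0154 FPKM for Pln to 18.7 for Tnni1, whereas the nonmuscle members ran from 5.96 for Myh14 to 1113 for Actb.

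**Figure D1:**
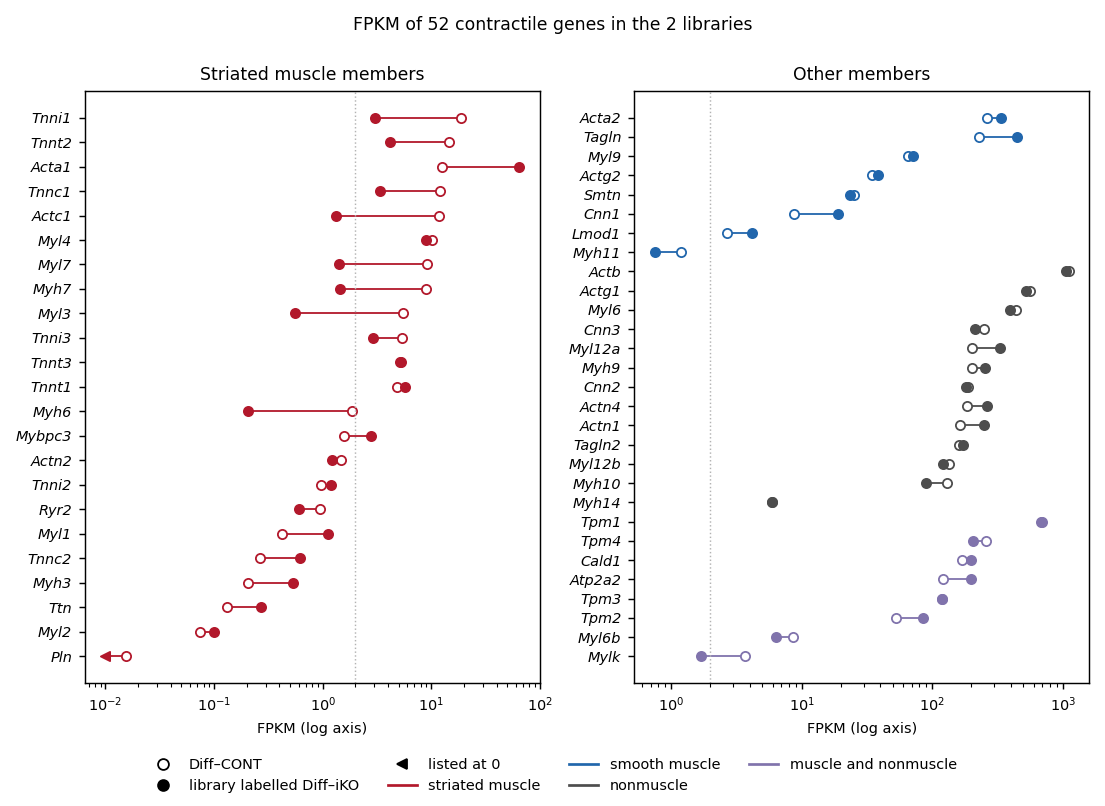
FPKM (log axis) of the 52 members in the Diff–CONT library (open points) and the library labelled Diff–iKO (filled points), with 1 library each and no error bars, ordered by Diff–CONT level within each class and with a dotted line at 2 FPKM. Most abundant striated genes shift to the left, Acta1 shifts to the right from 12.6 to 64.9, and nonmuscle genes keep their points close together.

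The troponin genes that the heart uses were lower and those of fast skeletal muscle were not. Tnnt2, which encodes cardiac troponin T, the subunit that binds tropomyosin, was 14.7 FPKM in Diff–CONT cells against 4.17 in those labelled Diff–iKO (log2 ratio -1.82, interval -2.17 to -1.47). The slow and fast skeletal troponin T genes Tnnt1 (4.89 and 5.79 FPKM) and Tnnt3 (5.13 and 5.29 FPKM) had intervals that include 0. Tnnt2 therefore made up 59.5% of troponin T FPKM in Diff–CONT cells and 27.3% in the other library, where Tnnt1 held 38.0% and Tnnt3 34.7%.

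Tnni1 and Tnni3 encode the inhibitory subunit troponin I, the former in slow skeletal muscle and the embryonic heart and the latter in the heart. Tnni1 was 18.7 FPKM in Diff–CONT cells against 3.03 in the other, a log2 ratio of -2.63 (interval -3.18 to -2.15). Tnni3 was 5.33 and 2.92 FPKM (log2 ratio -0.87, interval -1.38 to -0.36) and stayed inside the cut-off, and Tnni1 was lower relative to Tnni3 by more than counting error (difference -1.76, interval -2.46 to -1.07). Both genes thus lay at a similar level in the library labelled Diff–iKO, after a Diff–CONT level of Tnni1 that was 3.52 times that of Tnni3. The calcium sensor of heart and slow muscle, Tnnc1, was 11.9 and 3.35 FPKM (log2 ratio -1.83, interval -2.38 to -1.34). The fast skeletal genes Tnni2 (0.970 and 1.20 FPKM) and Tnnc2 (0.264 and 0.614 FPKM) stayed under 2 FPKM in both libraries.

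The troponin T and troponin I genes lie in pairs on the genome. On chromosome 7 Tnnt1 and Tnni3 are separated by 2329 bases, with log2 ratios of 0.24 (interval -0.19 to 0.66, which includes 0) and -0.87. On chromosome 1 Tnni1 (135783033 to 135810989, GRCm38) and Tnnt2 (135836315 to 135852268) are separated by 25325 bases and 1 further coding gene, and both were lower. The fast skeletal genes Tnni2 and Tnnt3, also on chromosome 7, had intervals that include 0.

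Both cardiac myosin heavy chains were lower. Myh7, the beta chain of ventricle and slow muscle, was 8.96 FPKM in Diff–CONT cells against 1.44 in the library labelled Diff–iKO, or 6.23-fold lower (log2 ratio -2.64, interval -2.86 to -2.42). Myh6, the faster alpha chain, was 1.85 and 0.207 FPKM and so just missed the minimum of 2 FPKM, with a log2 ratio of -3.16 (interval -3.79 to -2.59). The log2 ratios of the neighbours Myh6 and Myh7, 2666 bases apart on chromosome 14, differed by -0.52 with an interval of -1.13 to 0.09, which includes 0. Their coding sequences are 91.4% identical with a shared run of 245 bases, so reads could be divided between them in a way that the methods do not state. Myh3, the embryonic skeletal chain, was 0.206 and 0.530 FPKM.

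The nonmuscle heavy chains carried nearly all of the heavy chain FPKM, 96.5% in Diff–CONT cells against 99.2% in the other, and they did not move as a group. Myh9 (chain IIA) was 202 and 256 FPKM, and Myh10 (chain IIB) was 130 and 89.2. Their log2 ratios of 0.34 and -0.54 differed by 0.88 (interval 0.85 to 0.92), and the level of Myh9 relative to Myh10 went from 1.55 to 2.87. Myh14 (chain IIC) was 5.96 FPKM in both libraries. The smooth muscle chain Myh11 was 1.19 and 0.752 FPKM (log2 ratio -0.66, interval -1.01 to -0.31), so the heavy chain that defines mature smooth muscle was at a low level in both.

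The essential light chains, which stabilise the lever arm of myosin, behaved unlike each other. Myl3, of ventricle and slow muscle, was 5.48 FPKM in Diff–CONT cells against 0.562 in those labelled Diff–iKO (log2 ratio -3.28, interval -4.49 to -2.36), the latter resting on about 9 fragments. Myl4, of the atrium and the embryonic heart, was 10.3 and 8.93 FPKM, and its interval of -0.52 to 0.12 includes 0. The difference between Myl3 and Myl4 was -3.08 (interval -4.11 to -2.06). Myl4 was the most abundant of the heart genes that did not pass the cut-off, and it made up 84.1% of striated essential light chain FPKM in the library labelled Diff–iKO against 63.5% in the Diff–CONT library. Myl6, the chain of smooth muscle and nonmuscle cells, was 442 and 398 FPKM, and Myl6b, which lies 270 bases from Myl6 on chromosome 10, was 8.65 and 6.41. The fast skeletal Myl1 was 0.423 and 1.12 FPKM, with an interval that includes 0.

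Among the regulatory light chains, the atrial Myl7 was 9.16 FPKM in Diff–CONT cells against 1.43 in the other (log2 ratio -2.68, interval -3.59 to -1.80, about 13 fragments in the latter). The ventricular Myl2 rested on about 1 fragment in each library. The smooth muscle chain Myl9 was 65.9 and 71.4 FPKM (log2 ratio 0.12, interval 0.02 to 0.22). The nonmuscle chains Myl12a and Myl12b are neighbours on chromosome 17 with coding sequences that are 96.5% identical. Myl12a was 203 and 332 FPKM and Myl12b was 134 and 122, log2 ratios that differed by 0.85 (interval 0.78 to 0.91). The shared run of 102 coding bases makes the division of reads between Myl12a and Myl12b uncertain.

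**Figure D2:**
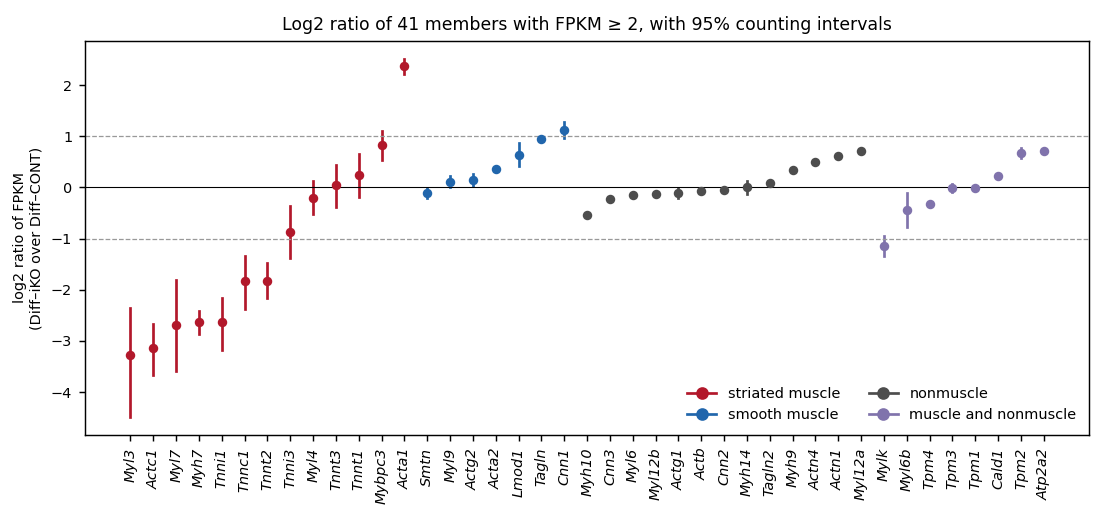
Log2 ratio of FPKM (library labelled Diff–iKO over Diff–CONT) of the 41 members with FPKM of at least 2 in at least 1 library, with 95% counting intervals as bars and dashed lines at the fold change of 2. Striated genes spread from -3.28 (Myl3) to 2.37 (Acta1), whereas nonmuscle genes lie between -0.54 (Myh10) and 0.71 (Myl12a).

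The sarcomeric actins moved in opposite directions. Actc1, the cardiac alpha actin gene, was 11.8 FPKM in Diff–CONT cells against 1.33 in the library labelled Diff–iKO, or 8.85-fold lower (log2 ratio -3.15, interval -3.67 to -2.67). Acta1, the skeletal alpha actin gene, was 12.6 and 64.9 FPKM, which is 5.17-fold higher (log2 ratio 2.37, interval 2.22 to 2.52). The levels of these genes were close in Diff–CONT cells, where Acta1 was 1.07 times Actc1, and Acta1 was 48.8 times Actc1 in the other. The difference between their log2 ratios was 5.52 (interval 5.02 to 6.01). As a result the summed sarcomeric actin FPKM was higher in the library labelled Diff–iKO (66.3 against 24.4), although the heart isoform was lower.

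The smooth muscle actins were slightly higher and the cytoplasmic actins slightly lower. Acta2, of vascular smooth muscle and myofibroblasts, was 263 and 337 FPKM (log2 ratio 0.36, interval 0.32 to 0.39), and Actg2, of enteric smooth muscle, was 34.7 and 38.5. Actb and Actg1, the cytoplasmic actins of all cells, were 1113 and 1063 FPKM and 560 and 519 FPKM, respectively. The actin coding sequences are between 81.6% and 88.6% identical in the pairs compared, and Acta1 shares a run of 77 bases with Actb. How reads were divided between them was not tested.

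The sequences before the start sites are shown for genes of both directions, because the CArG box, the site bound by serum response factor, is a known element of actin and smooth muscle promoters. Windows from 250 bases before to 50 bases after an annotated start (RefSeq, GRCm38.p6) were found for 45 of the 52 members, 52 windows in all. On either strand, 8 of the 52 windows (15.4%) held a CArG box, against 1.63% of all 32851 windows. They belong to Actc1, Acta1, Myl3, Myl7, Myl9, Myl6, Cnn2 and Actg1, whose log2 ratios ran from -3.28 to 2.37. All 8 boxes have only A or T between CC and GG, and looser forms of the box were not counted. The 250 bases before the start are given 5′ to 3′ for the heart genes that were lower (Actc1, Myl7, Myl3), the skeletal actin that was higher (Acta1) and a smooth muscle gene that stayed close to its Diff–CONT level (Myl9), with the CArG box in capitals. The windows are chr2:114052876-114053125 on the minus strand for Actc1, chr8:123894776-123895025 on the minus strand for Acta1, chr11:5898783-5899032 on the minus strand for Myl7, chr9:110763428-110763677 on the plus strand for Myl3 and chr2:156775214-156775463 on the plus strand for Myl9.
Actc1: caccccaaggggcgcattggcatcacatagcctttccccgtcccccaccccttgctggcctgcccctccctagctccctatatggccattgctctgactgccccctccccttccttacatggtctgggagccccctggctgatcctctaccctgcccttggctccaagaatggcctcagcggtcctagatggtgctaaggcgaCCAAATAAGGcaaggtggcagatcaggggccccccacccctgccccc
Acta1: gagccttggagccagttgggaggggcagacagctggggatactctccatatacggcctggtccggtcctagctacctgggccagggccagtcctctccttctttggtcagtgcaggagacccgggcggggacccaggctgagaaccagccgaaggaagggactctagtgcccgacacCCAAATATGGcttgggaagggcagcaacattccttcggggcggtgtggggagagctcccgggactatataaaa
Myl7: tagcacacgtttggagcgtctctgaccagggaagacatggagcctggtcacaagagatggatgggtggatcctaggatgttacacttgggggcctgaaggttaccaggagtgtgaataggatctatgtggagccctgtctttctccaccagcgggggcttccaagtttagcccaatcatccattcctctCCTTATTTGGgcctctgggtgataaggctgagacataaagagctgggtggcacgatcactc
Myl3: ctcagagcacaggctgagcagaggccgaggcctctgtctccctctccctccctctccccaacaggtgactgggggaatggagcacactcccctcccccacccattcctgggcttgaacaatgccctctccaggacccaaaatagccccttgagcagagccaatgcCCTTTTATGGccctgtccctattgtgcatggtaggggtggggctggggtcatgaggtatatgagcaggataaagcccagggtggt
Myl9: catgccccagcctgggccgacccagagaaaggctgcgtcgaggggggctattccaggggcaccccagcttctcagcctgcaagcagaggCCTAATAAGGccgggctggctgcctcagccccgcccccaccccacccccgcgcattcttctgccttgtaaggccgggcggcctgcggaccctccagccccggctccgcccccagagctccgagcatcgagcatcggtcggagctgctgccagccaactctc

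In these windows the CArG box begins 47 bases before the annotated start of Actc1, 73 before that of Acta1, 61 before that of Myl7, 85 before that of Myl3 and 161 before that of Myl9. The sequence TATAAA begins 33 bases after the annotated start of Actc1 and 7 bases before that of Acta1. Where transcription began in these cells was not measured. The box was therefore present in genes that were lower, higher and little different. The M-CAT motif CATTCC, a site of TEAD factors, was found in the windows of 19 members, 36.5% of member windows against 14.7% of all windows, and in Myl7 it lies upstream of the CArG box without overlapping it. The sequence TATAAA was found in the windows of 10 members, 19.2% of windows against 13.6% of all. The MEF2 site, which can overlap TATAAA, was found in those of Ttn and Mybpc3 only, 3.85% against 3.19%. Windows for Tagln, Actb, Actg2, Myh11, Atp2a2, Tnni2 and Tnnt3 were not analysed here.

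**Figure D3:**
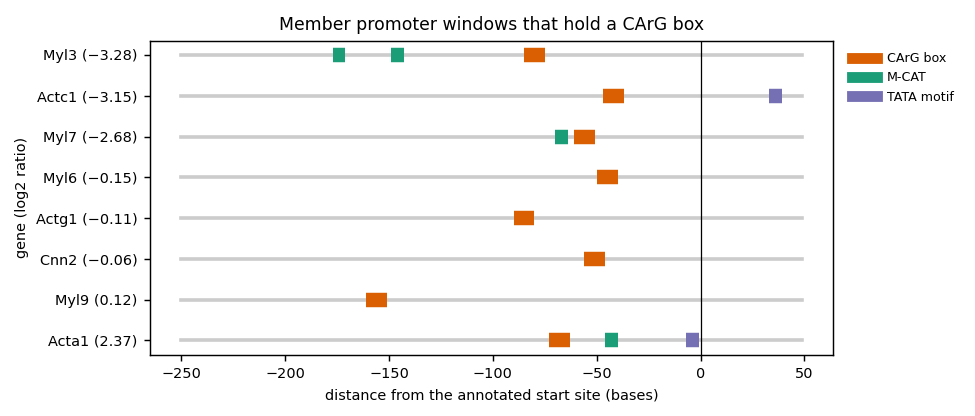
Positions of the CArG box, the M-CAT motif and the sequence TATAAA (marked TATA motif) in the 8 member windows that hold a CArG box, in bases from the annotated start site, ordered by the log2 ratio of FPKM given beside each gene. The first base of the box lies between 161 and 47 bases before the start in all 8 windows, from Myl3 at -3.28 to Acta1 at 2.37.

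Of the 7 smooth muscle members that reached 2 FPKM, Cnn1 was past the cut-off and higher (14.3%, against 6.73% of all genes), and Tagln came close. Tagln, the transgelin or SM22 gene and an early marker of smooth muscle, was 230 FPKM in Diff–CONT cells against 445 in the library labelled Diff–iKO, a 1.94-fold difference (log2 ratio 0.95, interval 0.92 to 0.99) just under the cut-off. Cnn1, whose product calponin restrains the actomyosin ATPase, was 8.71 and 19.0 FPKM (log2 ratio 1.12, interval 0.97 to 1.27), and this interval includes the cut-off. Lmod1, a leiomodin that nucleates actin filaments in smooth muscle, was 2.68 and 4.18 FPKM. Smtn, which encodes smoothelin, was 25.4 and 23.6 FPKM. The broadly expressed relatives differed less, with Tagln2 at 162 and 171 FPKM, Cnn2 at 189 and 181 and Cnn3 at 250 and 214. Calponin 1 thus went from 1.95% to 4.57% of calponin FPKM, and Tagln from 58.7% to 72.2% of transgelin FPKM.

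Isoforms of the same protein were then compared within each family, as the log2 ratio of the summed muscle genes minus that of the summed nonmuscle genes, a difference that does not depend on how the libraries are scaled. Striated heavy chains were lower than nonmuscle heavy chains by -2.40 (interval -2.57 to -2.22), and striated regulatory light chains were lower than the nonmuscle ones by -3.03 (interval -3.84 to -2.21). The difference was -0.46 (interval -0.73 to -0.18) for essential light chains, and it was -0.05 when only Myl4 and Myl6, the most abundant gene of each class, were compared. It was -0.84 (interval -1.24 to -0.43) for alpha-actinins. For actin it was 1.52 (interval 1.40 to 1.64) and rested on Acta1, without which it was -3.07.

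For smooth muscle isoforms the same difference was positive in transgelin (0.87, interval 0.81 to 0.94), calponin (1.27, interval 1.12 to 1.42) and actin (0.41, interval 0.37 to 0.46). It was negative in the myosins, at -0.72 (interval -1.06 to -0.38) for heavy chains and -0.31 (interval -0.42 to -0.21) for regulatory light chains. The sign of the difference thus was not shared by all families of smooth muscle isoforms.

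**Figure D4:**
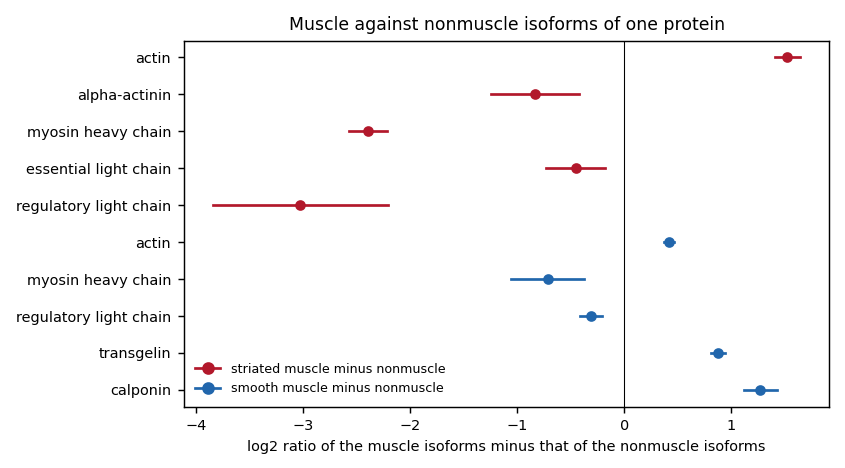
Difference between the log2 ratios of summed muscle and summed nonmuscle isoforms of a protein (x axis, log2 units), with 95% counting intervals as bars, for striated muscle (red) and smooth muscle isoforms (blue). Striated isoforms are below 0 in 4 of 5 families, with actin at 1.52, and smooth muscle isoforms are above 0 in 3 of 5.

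The alpha-actinins, which cross-link actin filaments, differed by isoform. Actn2, the Z-disc isoform, was 1.49 and 1.23 FPKM with an interval that includes 0. The nonmuscle genes Actn1 (163 and 250 FPKM, log2 ratio 0.62) and Actn4 (185 and 262 FPKM, log2 ratio 0.50) were higher by more than counting error and under the cut-off.

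The tropomyosins make muscle and nonmuscle isoforms from the same genes, which FPKM per gene does not separate. Tpm1, Tpm3 and the summed FPKM of all 4 genes (1121 and 1096) hardly differed between the libraries, and Tpm3 was 119 FPKM in each. Tpm2, the beta tropomyosin gene, was 53.3 and 85.0 FPKM (log2 ratio 0.67, interval 0.58 to 0.77), and Tpm4, which is mainly nonmuscle, was 259 and 207.

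The remaining genes of thick filament, calcium cycling and thin filament regulation went several ways. Mybpc3, cardiac myosin-binding protein C, was 1.58 and 2.79 FPKM (log2 ratio 0.82, interval 0.54 to 1.10), against the direction of the cardiac myosin genes. Ttn, the titin gene, was 0.132 and 0.271 FPKM (log2 ratio 1.04, interval 0.83 to 1.25), a level so low that it entered only the counts and medians made without a minimum on FPKM. Ryr2, the calcium release channel of the heart, was 0.955 and 0.604 FPKM, and Pln, the inhibitor of the SERCA2 pump, was 0.0154 in Diff–CONT cells and listed at 0 in the other library. Atp2a2, which encodes SERCA2 in its cardiac and ubiquitous forms, was 121 and 199 FPKM (log2 ratio 0.72, interval 0.69 to 0.75). Mylk, the light chain kinase gene, was 3.70 and 1.69 FPKM with a log2 ratio of -1.14 (interval -1.33 to -0.94, which spans the cut-off), and Cald1, the caldesmon gene, was 168 and 197.

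After their values were seen, the striated members were divided by use. Tnni1, Tnnc1, Myl3 and Myh7, which slow skeletal muscle also uses, were counted with the heart, and the slow skeletal Tnnt1 with skeletal muscle. Of 14 genes of the heart, 10 reached 2 FPKM and 7 of these were past the cut-off, all lower (70%, against 8.39% of all genes), with Tnni3, Myl4 and Mybpc3 as the exceptions. Of the 7, Myl3, Myl7, Myh7 and Actc1 reached 2 FPKM in Diff–CONT cells only. Of 7 genes of skeletal muscle, 3 reached 2 FPKM, and Acta1 was past the cut-off and higher (6.73% of all genes were). The summed FPKM was 101 and 30.9 for the heart genes and 24.5 and 79.5 for the skeletal genes, in which Acta1 alone was 12.6 and 64.9. No test was made of this division.

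Other genes of muscle were read from lists of textbook genes. Of 45 further sarcomere and Z-disc genes, 15 reached 2 FPKM, of which 6 (40%) were past the cut-off and lower and 3 (20%) were higher, against 8.39% and 6.73% of all genes, with a median log2 ratio of -0.50 over the 20 genes whose mean FPKM reached 1. Pdlim3, a Z-disc protein gene, was 12.7 and 4.38 FPKM, Tmod1, which caps thin filaments, was 3.19 and 0.565, and Unc45b, a myosin chaperone gene, was 2.71 and 0.530. Of the lower genes only Pdlim3 reached 2 FPKM in both libraries, so the others could pass only through their Diff–CONT values. Mylpf, the regulatory light chain gene of fast skeletal muscle, was 26.9 and 176 FPKM (log2 ratio 2.71, interval 2.55 to 2.88) and, like Acta1, passed the cut-off. Myh8, the perinatal heavy chain gene of skeletal muscle, named after its values were seen, was 2.50 and 0.127 FPKM (log2 ratio -4.29, interval -5.09 to -3.60), the lowest ratio among the 9 genes of this list past the cut-off. The chaperone gene Cryab (70.6 and 178 FPKM) and the fast actinin gene Actn3 (2.16 and 4.69 FPKM) were the other higher genes. Of 20 calcium handling genes 13 reached 2 FPKM, of which 3 were lower (23.1%) and 1 was higher (7.69%). Hrc (10.2 and 4.85 FPKM), Cacnb2 (3.96 and 1.16) and Slc8a1 (2.21 and 1.04) were lower while Casq1, a calsequestrin of skeletal muscle, was higher (0.691 and 3.01).

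Among transcription factors of muscle, 9 of the 17 genes that reached 2 FPKM were past the cut-off and lower (52.9%, against 8.39% of all genes) and 0 were higher (against 6.73%). Some of the 9 were under 2 FPKM in the library labelled Diff–iKO, so they could pass only through their Diff–CONT values. Hand1 was 70.8 and 31.3 FPKM, and Gata4, a zinc finger factor of heart and endoderm, was 20.1 and 2.56. The factors that act at CArG boxes were looked up after the promoter windows had been read. Srf, serum response factor, was 14.6 and 12.0 FPKM, its partners Mkl1 and Mkl2 were 12.4 and 13.8 and 8.15 and 8.71, and Myocd, the myocardin gene of heart and smooth muscle, was 1.13 and 0.344. The skeletal muscle factors Myod1, Myf5, Myf6 and Myog were each at 0.344 FPKM or less in both libraries.

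Of 28 further genes of smooth muscle and contractility, 23 reached 2 FPKM, and Pgm5 (4.90 and 1.35 FPKM) and Ppp1r12b (2.53 and 1.18) were lower (8.70%) with 0 genes higher, around a median of 0.04, so the share that was lower lay near the 8.39% of all genes. Of 36 measured genes of the actin cytoskeleton, Rdx, the radixin gene (115 and 54.2 FPKM), was past the cut-off (2.78%, under the share of all genes), and the median was 0.14.

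Markers of other cells moved with these groups, and their counts past the cut-off stand against the same 8.39% lower and 6.73% higher among all genes. All 10 markers of undifferentiated ESCs were higher in the library labelled Diff–iKO, 9 of them past the cut-off, with a summed level of 484 and 3006 FPKM. The 10 blood markers summed to 189 and 5.47 FPKM, and 5 of them reached 2 FPKM, of which 4 were past the cut-off and lower. Much of the Diff–CONT sum came from the embryonic globin genes Hbb-bh1 (88.2 FPKM) and Hba-x (54.9 FPKM), both listed at 0 in the library labelled Diff–iKO. The 10 visceral endoderm markers summed to 239 and 19.5 FPKM, with all 10 lower and 9 past the cut-off. Among 10 endothelial markers 6 were past the cut-off and lower and 1 was higher (sums 87.3 and 106, in which Pecam1 was 16.2 and 53.9), and among 10 fibroblast and mesenchyme markers 6 were lower (sums 1974 and 1720, in which Col1a1, named after its values were seen, was 880 and 1199). Apart from the globin genes, no marker of these 5 lists was at 0 in either library. The part of these other cells in the lower heart genes, in the higher smooth muscle genes and in the higher Acta1 and Mylpf was not tested.

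**Figure D5:**
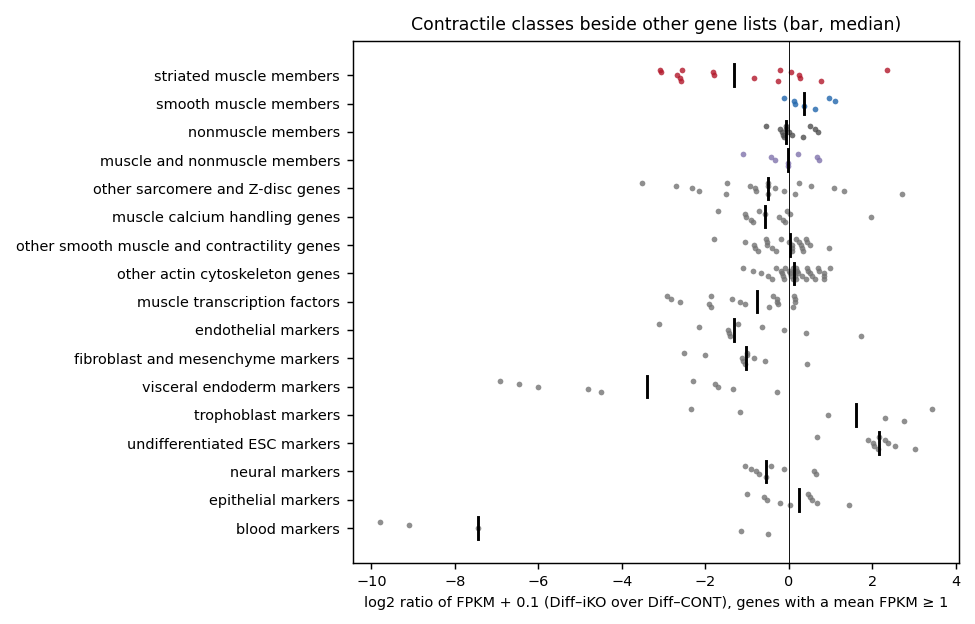
Log2 ratio of FPKM + 0.1 (library labelled Diff–iKO over Diff–CONT) of each gene whose mean FPKM reached 1, as points, for the 4 classes of contractile genes and 13 other lists, with black bars at the medians. The striated members have a median of -1.32, the smooth muscle members 0.36 and the undifferentiated ESC markers 2.16.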

How the data were processed

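The authors deposited FPKM values per gene for 2 libraries of poly(A)-selected, stranded RNA (1 µg of total RNA each). The submitters' processing notes name STAR 2.7.9a, Cufflinks 2.2.1 with Cuffnorm, and mm10. STAR was run with default options. The gene annotation, the strand setting and how Cufflinks divided reads with several matches are not given in the sources used here. The 2 value columns were assigned to libraries by name, and 0 others were present.

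Ratios were taken without a pseudocount for the cut-off, and as log2(FPKM + 0.1) for medians, which understates the change of low genes. Depth came from the steps of low FPKM values in 10499 genes with a RefSeq transcript of at least 1000 bases, less 200 bases. Of these values 87.3% and 87.8% lay within 0.2 of a whole fragment, against 40% by chance. Fragments per gene use the shortest RefSeq-paired transcript. Intervals on single genes are exact (Clopper-Pearson), and those on differences are normal approximations. All cover counting error only. The classes, lists and members were chosen with earlier results of these data known. The genes named are all members with FPKM of at least 2, and up to 3 genes in each direction per other list, of which 1 is not reported here. Other members, marker genes at 0 and the factors of CArG boxes and skeletal muscle were added after their values were seen. The steps were tested on simulated data. Alternatives were other pseudocounts, filters, fold changes, scalings and summed rows. GRCm38 coordinates, promoter windows and transcripts are from RefSeq and GENCODE vM21. The software was scipy 1.17.1, pandas 2.3.3, numpy 2.4.6, Biopython 1.88 and matplotlib 3.10.9 under Python 3.11.15.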

Additional observations from a re-analysis of the deposited data

How the results depend on the processing

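Of 78 recomputed values, 60 stayed within 1.5 times the count reported or within the counting interval, 17 moved further and 1 changed sign. For a class median, the interval used ran from the median of its genes' lower bounds to the median of their upper bounds. The count of higher members went from 2 to 6 with no filter on FPKM (14.9% of all genes), to 9 with a fold change of 1.5 (14.9%) and to 1 with a fold change of 4 (2.25%). The count of lower members went from 8 to 3 when FPKM of at least 2 was required in both libraries (5.10% of all genes) and to 5 with a fold change of 4 (1.91%). With a fold change of 1.5 it was 9 (17.6%), equal to the count of higher members. The striated median of -1.32 became -0.21 with no filter, -1.80 with a minimum mean FPKM of 5, and -1.80 without Acta1. The smooth muscle median of 0.36 became 0.25 with either of these filters and 0.26 when the libraries were scaled to the same sum, a scaling that shifts every log2 ratio by -0.09 and moved the nonmuscle median to -0.15. Comparing only the most abundant gene of each class gave 2.43 for striated actin, -2.98 for striated heavy chains, -0.051 for striated essential light chains and -0.59 for smooth muscle regulatory light chains. A pseudocount of 1 gave -1.98 for striated heavy chains. Leaving out Acta1, which was chosen after seeing the data, turned the actin difference from 1.52 to -3.07. No symbol had several rows, so summing rows changed nothing. No paired analysis was possible because each condition had 1 library, and none could be left out. Among the members past the cut-off, Myl3 and Myl7 rested on the fewest fragments, about 9 and 13 under the label Diff–iKO, and among the others Pln, Myl2 and Tnnc2 had about 0, 1 and 7 there.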

Other observations

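Lists for cells that were not part of the comparisons above gave the following values, beside 6.73% of all genes past the cut-off and higher and 8.39% lower. Of 10 trophoblast markers, 6 reached 2 FPKM, of which 4 lay above the cut-off in cells labelled Diff–iKO and 2 below it, 1 of them Hand1, which is also in the list of muscle factors. Prl3d1, a placental prolactin gene, was 0.484 FPKM in Diff–CONT cells against 6.19 in the other, and Tpbpa, of the spongiotrophoblast, was 1.07 and 5.63. Cdx2, a factor of early trophoblast and posterior mesoderm, was 4.00 and 0.705 FPKM. Of 10 neural markers 1 was past the cut-off, Dcx at 5.66 and 2.69 FPKM, with a median log2 ratio of -0.55 over 9 genes. Of 10 epithelial markers 1 was past the cut-off, Cldn4 at 76.2 and 208 FPKM, with a median of 0.24.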
